A study of Mus musculus with 7 samples.

Results

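The RNA of tumors grown from fibroblasts was examined for 50 genes of DNA replication, the proteins that mark an origin, load and start the replicative helicase, and run the fork. The members are the 50 mouse genes named for this purpose, found in the count files by Ensembl identifier through their GENCODE M21 symbol, and all 50 were present among the 46603 genes counted. The KO group is nuclear myosin 1 (NM1) knockout cells, made by CRISPR/Cas9 from the mouse embryonic fibroblast line CRL-2752 and grown as a tumor. The KO + NM1 group is the same knockout line with NM1-HA-V5 returned on a lentivirus under neomycin selection, from which single clones were tested. Cells of both groups, all without their own NM1, were injected subcutaneously into female Balb/c nude mice 16 weeks of age, in groups of 5 mice. Tumors were taken at 30 days by the sample labels, each was cut into 4 pieces, and RNA was sequenced from 3 pieces for KO and 4 for KO + NM1. The replicates are therefore pieces. The labels write of 1 tumor for each group while the methods write of tumors, so p-values measure the spread between pieces and may hold none between mice, and the tumor, the clone and the group cannot be told apart.

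Replication begins when the origin recognition complex binds DNA and, with Cdc6 and Cdt1, loads the MCM2-7 helicase as an inactive double ring. In S phase the kinase Cdc7 with its activator Dbf4, and then Cdc45, GINS, Mcm10 and Recql4, turn that ring into a moving fork. Polymerases, the PCNA clamp with its RFC loader, the single-strand binder RPA and the enzymes that join Okazaki fragments then copy DNA behind it. Transcripts of many of these genes are made mainly in dividing cells, under the E2F factors, and fall in cells that leave the cycle. In bulk tissue, fewer cells of a type and less RNA per cell cannot be told apart.

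Total counts lay between 24088309 and 28326568 per piece, so that 3 counts, taken as the floor, equalled 0.0991 to 0.148 CPM (counts per 1000000 counts of a library, on library sizes corrected by TMM). No member was at or under that floor in any piece. Myo1c, whose gene encodes NM1, had 303 ± 12.1 CPM in KO (SD, n = 3) and 408 ± 23.1 in KO + NM1 (SD, n = 4), a log2 difference of -0.43 ± 0.13 (SE, edgeR adjusted p = 0.031). A count per gene does not separate NM1 from the other myosin isoforms of Myo1c. It is therefore no check of the deletion. Mki67, the gene of the proliferation antigen Ki-67, stood at 395 ± 81.3 CPM (SD, n = 3) in KO and 9.01 ± 7.67 (SD, n = 4) in KO + NM1. Fibroblast markers were present in all pieces, with a summed level of 9870 to 16000 CPM in KO and 4080 to 15400 in KO + NM1. Of these 10 markers 1 was called higher and 4 lower in KO. They do not separate injected cells from those of the host.

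Replication genes were far more abundant in tumors derived from KO cells. Of the 50 members, 45 were higher in KO at an adjusted p under 0.05 (edgeR quasi-likelihood test over 16887 genes), where 25.7% of all genes tested were called in that direction. A difference of at least 2-fold was also met by 43 members, against 17.1% of all genes. The pieces of the groups did not overlap and KO was the higher group for 46 members, as for 30.5% of all genes. The median log2 fold change of the members was 2.58, beside -0.002 over all genes tested. The counts of the 50 members together came to 5140, 4530 and 4620 CPM in the KO pieces and to 1490, 773, 725 and 744 CPM in KO + NM1 pieces 01 to 04. That is a mean 5.1-fold higher in KO.

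No member was called lower in KO by edgeR, against 24.5% of all genes tested, and no member was lower at an unadjusted p under 0.05 either. DESeq2 and limma voom each called 1 member lower, which was Orc5, where they called 30.7% and 35.2% of all genes lower. The 5 members that did not pass the test were Orc3, Orc4, Orc5, Pold1 and Rfc2. The first 3 are subunits of the origin recognition complex and differed by -0.21 to 0.33 on the log2 scale, while Pold1 and Rfc2 were high in a single KO + NM1 piece.

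**Figure D1:**
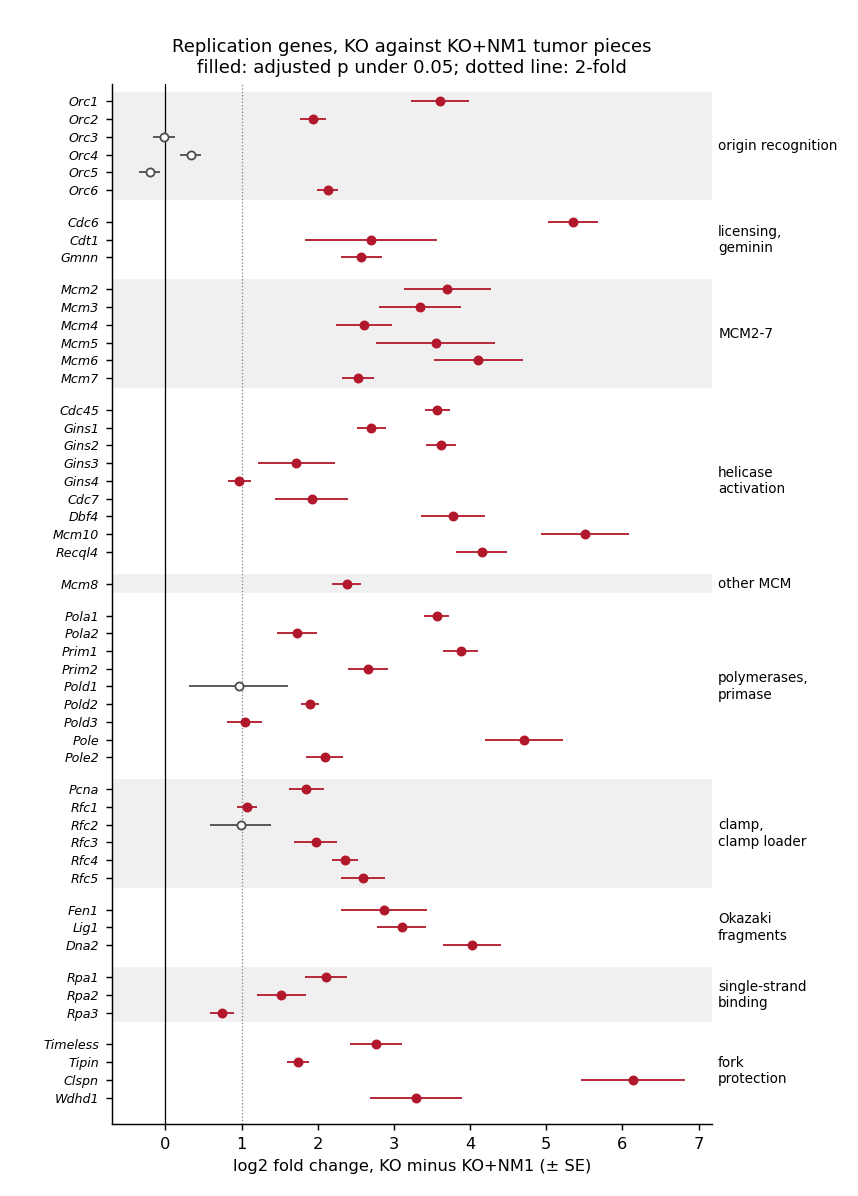
Log2 fold change (KO minus KO + NM1, ± SE from the edgeR fit; x axis) of the 50 replication genes, grouped by role (y axis). Filled points passed an adjusted p under 0.05 and the dotted line marks a 2-fold difference. The values run from -0.21 for Orc5 to 6.14 for Clspn, and Orc3, Orc4 and Orc5 are the points nearest 0.

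The extremes were Clspn at 6.14 and Orc5 at -0.21 on the log2 scale. Their promoters are shown with those of Mcm6 and Mcm7, the MCM2-7 genes that differed most and least between the groups, because E2F is a factor well known for this gene class. The sequences are RefSeq windows on GRCm38.p6, from 250 bases before to 50 bases after the start of the gene, printed in the direction of the gene. Capitals mark the E2F letters searched, on either strand.
Clspn, chr4:126556730-126557029, plus strand: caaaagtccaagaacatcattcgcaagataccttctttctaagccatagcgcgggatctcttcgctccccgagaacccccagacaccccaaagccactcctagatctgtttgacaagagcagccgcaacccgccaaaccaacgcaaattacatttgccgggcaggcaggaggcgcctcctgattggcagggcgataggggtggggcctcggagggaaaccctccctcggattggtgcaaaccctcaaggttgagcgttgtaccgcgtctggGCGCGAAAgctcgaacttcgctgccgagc
Mcm6, chr1:128359656-128359955, minus strand: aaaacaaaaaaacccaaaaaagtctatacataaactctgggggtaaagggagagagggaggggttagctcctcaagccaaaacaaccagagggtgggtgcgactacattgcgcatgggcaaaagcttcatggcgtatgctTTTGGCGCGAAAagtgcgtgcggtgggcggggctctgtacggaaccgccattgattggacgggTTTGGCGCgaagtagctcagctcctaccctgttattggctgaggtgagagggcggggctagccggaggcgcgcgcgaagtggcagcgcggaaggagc
Mcm7, chr5:138171834-138172133, minus strand: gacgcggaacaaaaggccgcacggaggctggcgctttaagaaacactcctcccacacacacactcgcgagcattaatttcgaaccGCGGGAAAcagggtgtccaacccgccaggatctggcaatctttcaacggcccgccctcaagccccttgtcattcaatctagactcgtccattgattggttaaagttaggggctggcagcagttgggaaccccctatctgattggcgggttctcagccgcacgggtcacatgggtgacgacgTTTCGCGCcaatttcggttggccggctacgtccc
Orc5, chr5:22550289-22550588, minus strand: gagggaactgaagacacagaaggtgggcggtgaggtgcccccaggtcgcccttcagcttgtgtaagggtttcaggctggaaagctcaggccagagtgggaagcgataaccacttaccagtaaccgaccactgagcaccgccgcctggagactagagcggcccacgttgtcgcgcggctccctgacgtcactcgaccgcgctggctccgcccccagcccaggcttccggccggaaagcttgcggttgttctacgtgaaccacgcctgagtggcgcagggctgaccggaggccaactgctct
Mcm7 has a second window, which holds none of the E2F letters.

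The letters searched were TTTCCCGC, TTTCGCGC, TTTGCCGC and TTTGGCGC for E2F, TTTGAA for the CHR element of late cell cycle genes and CCAAT for the box bound by NF-Y, each on both strands. Windows were found for 40 members and not for Gmnn, Mcm4, Gins1, Gins2, Gins4, Recql4, Prim2, Pole, Rfc2 and Tipin. E2F letters occurred in a window of 17 of these 40 genes (42.5%), beside 704 of the 27025 genes with a window (2.6%). CCAAT occurred in 57.5% of the members and 41.1% of all genes, and TTTGAA in 17.5% and 20.2%. The window of Mcm6 held 3 E2F matches, 2 of which overlap, and those of Mcm3, Mcm5, Mcm7 and Rfc3 held 2 each. E2F letters were in 15 of the 36 members with a window that were higher in KO, and in 2 of the 4 that did not pass the test, Orc3 and Pold1. The windows were not matched for base composition, and a match of letters is a description only.

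Of the origin recognition complex, 3 subunits were called higher in KO and 3 did not pass the test. Orc1, the ATPase that is made anew in each cell cycle, measured 11.6, 8.17 and 8.12 CPM in the KO pieces and 1.2, 0.61, 0.791 and 0.452 CPM in KO + NM1 pieces 01 to 04. Every KO piece stood above every KO + NM1 piece, with a log2 fold change of 3.60 ± 0.38 (SE, edgeR adjusted p = 0.000763). Orc6, which docks the complex for MCM loading, and Orc2, a core subunit, were also higher, by 2.13 ± 0.14 and 1.94 ± 0.17 on the log2 scale (SE). Of the exon bases of Orc2, 29.8% are shared with Nif3l1, and of those of Orc1, 10.8% with Gm12743, both on the opposite strand, and the part of these overlaps was not tested. At the other end Orc5, a core subunit with an ATPase fold, measured 21.4, 18.3 and 19.1 CPM in KO and 23.3, 22.8, 21.9 and 22.9 in KO + NM1. The KO pieces lay slightly below the others, and the difference of -0.21 ± 0.14 (SE) did not pass the test (edgeR adjusted p = 0.237). Orc3 measured 35.6 ± 3.39 CPM in KO (SD, n = 3) and 36.2 ± 3.81 in KO + NM1 (SD, n = 4), with overlapping pieces and a log2 difference of -0.02 ± 0.14 (SE, edgeR adjusted p = 0.907). Its sign turned with scaling by library size alone, with voom and without KO + NM1 piece 03. Orc4, the other ATPase of the core, measured 31.7 ± 1.32 against 25.2 ± 2.83 CPM (SD), a log2 difference of 0.33 ± 0.14 (SE, edgeR adjusted p = 0.0921). Its pieces did not overlap between the groups, with KO the higher, and voom called it higher at 0.35 (adjusted p = 0.00444). Without KO + NM1 piece 01, Orc4 was called higher at 0.28 (adjusted p = 0.0357) and Orc5 lower at -0.33 (adjusted p = 0.0343).

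Per kilobase of exon the shares of the 6 genes in their summed transcript counts therefore differed, which restates the fold changes above. The protein complex was not measured. The exon length joins all annotated exons of a gene and can exceed that of the transcript made. Levels, shares and ranks between genes depend on that length, and its part was not tested. Orc6 gave 41.3% ± 0.929 of the summed counts per kilobase in KO (SD, n = 3) and 24% ± 1.83 in KO + NM1 (SD, n = 4). Orc1 gave 4.32% ± 0.392 and 0.89% ± 0.317, the lowest share in all 7 pieces. Orc3 made up 9.55% ± 0.766 in KO and 24.5% ± 1.88 in KO + NM1. The shares of Orc1, Orc2 and Orc6 were higher, and those of Orc3, Orc4 and Orc5 lower, in every KO piece than in any KO + NM1 piece.

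All 6 genes of the MCM2-7 helicase were higher in KO, with log2 fold changes from 2.53 to 4.11 and a median of 3.44. Mcm6 measured 228, 214 and 218 CPM in KO and 30, 6.1, 6.03 and 8.72 CPM in KO + NM1 pieces 01 to 04, a log2 fold change of 4.11 ± 0.59 (SE, edgeR adjusted p = 0.00216). The lowest KO piece was 7.13 times as high as KO + NM1 piece 01, the highest piece of its group. Mcm7 measured 288, 241 and 238 CPM against 61.5, 38.9, 36.4 and 40.9 CPM, which gave 2.53 ± 0.21 (SE, edgeR adjusted p = 0.000402). Its fold change was the smallest of the 6, and its level per kilobase was the highest of the 6 in KO + NM1 pieces 02 to 04. Mcm2, Mcm3, Mcm4 and Mcm5 lay between, at 3.70, 3.34, 2.61 and 3.55 on the log2 scale. Without KO + NM1 piece 01 the log2 fold changes were 4.42 for Mcm2, 4.00 for Mcm3, 4.76 for Mcm5 and 4.85 for Mcm6, each a fold over 1.5 times as large as with it, while Mcm4 at 2.95 and Mcm7 at 2.60 moved less.

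The helicase is built from 1 copy of each subunit. With exon lengths as above, the counts per kilobase of its genes lay within about 2-fold in KO. Per kilobase of exon, the highest subunit exceeded the lowest 2-fold, 1.99-fold and 1.97-fold in the KO pieces, with Mcm3 highest and Mcm2 lowest each time. In KO + NM1 pieces 02, 03 and 04 the same ratio was 6.7, 6.37 and 5.51, with Mcm7 highest. Piece 01 differed from these, at 2.5 with Mcm3 highest. Mcm7 took 17.9% ± 0.737 of the sum in KO (SD, n = 3), 19.3% in KO + NM1 piece 01 and 36.5% to 38.5% in pieces 02 to 04. Of the exon bases of Mcm7, 12.6% are shared with Ap4m1 and Cops6 on the opposite strand or with the miRNAs Mir25 and Mir93 on its own, and the strand option of the counting is not given in the sources used here. The part of these neighbours in the Mcm7 level was not tested.

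**Figure D2:**
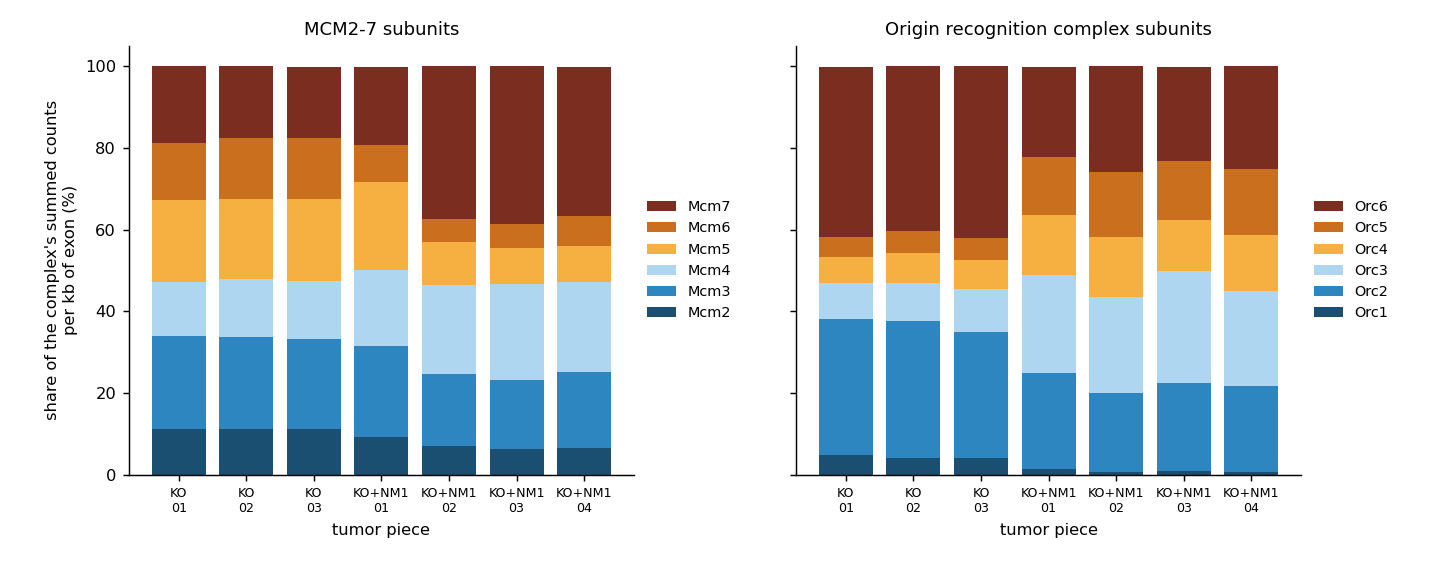
Share (%, y axis) of each subunit in the summed counts per kilobase of exon of its complex, for MCM2-7 (left) and the origin recognition complex (right), in each of the 7 tumor pieces (x axis). Mcm7 takes 17.3% to 18.7% of the MCM2-7 sum in the KO pieces and 36.5% to 38.5% in KO + NM1 pieces 02 to 04, and Orc6 takes 40.3% to 42.1% of the other complex in KO and 22% to 25.9% in KO + NM1.

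The licensing factors Cdc6 and Cdt1, which load MCM2-7, and geminin, which blocks Cdt1 after licensing, were all higher in KO. Cdc6 measured 97.4, 86.2 and 82.4 CPM in KO and 3.43, 1.18, 2.27 and 1.81 CPM in KO + NM1. The groups were 24-fold apart at their nearest pieces, and the log2 fold change was 5.35 ± 0.33 (SE, edgeR adjusted p = 0.000229). Gmnn, the geminin gene, measured 52.7, 53.5 and 49.2 against 11.8, 7.24, 10.4 and 5.43 CPM, or 2.57 ± 0.27 (SE, edgeR adjusted p = 0.000741). Cdt1 depended on the piece: it measured 116, 104 and 116 CPM in KO, 51.3 CPM in KO + NM1 piece 01, and 6.83, 4.5 and 6.21 CPM in pieces 02 to 04. Its log2 fold change of 2.70 ± 0.87 (SE, edgeR adjusted p = 0.0386) was no longer called when any 1 piece other than KO + NM1 piece 01 was left out, with adjusted p from 0.0712 to 0.0985. Without KO + NM1 piece 01 it was 4.13 (adjusted p = 5.21e-06).

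All 9 genes that turn the loaded ring into a working helicase were higher in KO, 8 of them by at least 2-fold. Mcm10, which promotes opening of the double ring, measured 77.1, 67.2 and 58.3 CPM in KO and 3.47, 0.732, 0.642 and 1.03 CPM in KO + NM1, a log2 fold change of 5.51 ± 0.58 (SE, edgeR adjusted p = 0.000945). Gins4 was the exception in size, with 63.7, 54 and 55.4 CPM against 25.6, 33.7, 30.9 and 27.3 CPM, or 0.97 ± 0.15 (SE, edgeR adjusted p = 0.00191). Its groups did not overlap. Gins4 encodes 1 of the 4 subunits of GINS, and its partners Gins1, Gins2 and Gins3 differed by 2.70, 3.62 and 1.72 on the log2 scale. Per kilobase of exon Gins4 stood at 21.8 ± 2.68 CPM in KO + NM1 (SD, n = 4), while the partners stood at 3.39 ± 0.606, 1.34 ± 0.317 and 2.58 ± 1.94. In KO the same 4 levels were 42.8 ± 3.87 for Gins4 and 22 ± 0.961, 16.5 ± 0.946 and 8.54 ± 0.225 for Gins1, Gins2 and Gins3 (SD, n = 3). For Gins2, 67.3% of the exon bases are shared with Gse1 on the opposite strand. The part of that overlap and of the exon lengths in these levels was not tested.

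Cdc45, the third component of the active helicase, differed by 3.57 ± 0.16 (SE) on the log2 scale and the helicase-family protein Recql4 by 4.15 ± 0.33. Dbf4, the activator that gives Cdc7 its kinase activity, differed by 3.77 ± 0.42 and Cdc7 itself by 1.92 ± 0.48. The calls of Gins3 and Cdc7 were less firm. Gins3 was no longer called when any 1 piece other than KO + NM1 piece 01 was left out (adjusted p 0.0536 to 0.0785), and Cdc7 without KO piece 01 (0.055) or KO piece 03 (0.0519). Mcm8, an MCM relative that acts with Mcm9 in repair and not in the MCM2-7 ring, measured 22.6, 19.1 and 17.8 CPM in KO and 3.39, 4.03, 4.05 and 3.78 CPM in KO + NM1, or 2.38 ± 0.19 (SE, edgeR adjusted p = 0.000348).

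Of the 9 genes of the replicative polymerases and primase, 8 were higher in KO. Pole, the catalytic subunit of the leading-strand polymerase epsilon, measured 130, 108 and 123 CPM in KO and 9.88, 3.13, 2.12 and 3.17 CPM in KO + NM1. Its log2 fold change of 4.71 ± 0.51 (SE, edgeR adjusted p = 0.000951) was the highest of the 9. Pold1, the catalytic subunit of polymerase delta on the lagging strand, measured 115, 110 and 113 CPM in KO, 146 CPM in KO + NM1 piece 01 and 31.1, 24.6 and 30.1 CPM in pieces 02 to 04. Piece 01 was thus the highest of all 7, and the log2 difference of 0.96 ± 0.65 (SE) did not pass the test (edgeR adjusted p = 0.251). Without that piece it was 1.86 (adjusted p = 1.28e-05). The primase genes Prim1 and Prim2, the polymerase alpha genes Pola1 and Pola2, the polymerase delta subunits Pold2 and Pold3 and the epsilon subunit Pole2 were higher by 1.04 to 3.88 on the log2 scale.

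Of the sliding clamp Pcna and the 5 subunits of its RFC loader, 5 genes were higher in KO, all by at least 2-fold. Rfc5 measured 89.5, 79.6 and 84.2 CPM in KO and 22.5, 9.68, 11.7 and 12 CPM in KO + NM1, or 2.59 ± 0.29 on the log2 scale (SE, edgeR adjusted p = 0.000871). Rfc2 measured 106, 92.1 and 101 CPM in KO, 96.4 CPM in KO + NM1 piece 01 and 35.3, 34.8 and 35.2 CPM in pieces 02 to 04. Piece 01 lay within the KO values, and the difference of 0.99 ± 0.4 (SE) did not pass (edgeR adjusted p = 0.0768). Without it the difference was 1.38 (adjusted p = 1.7e-05). Of the exon bases of Rfc2, 15.1% are shared with Lat2, a gene expressed in B cells, on the opposite strand. Rfc4 shares 12.7% with Eif4a2 and Rfc5 10.7% with Wsb2 in the same way, and the part of these overlaps was not tested. Pcna, which holds polymerases on DNA, had the highest level per kilobase of all 50 members in both groups, at 99 ± 6.87 CPM per kilobase in KO (SD, n = 3) and 27.4 ± 8.15 in KO + NM1 (SD, n = 4). Its log2 fold change was 1.85 ± 0.23 (SE), and 2 pseudogenes named after Pcna could share its reads.

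The 3 enzymes that finish Okazaki fragments were higher in KO. The nuclease and helicase gene Dna2 measured 67.9, 65.7 and 61.4 CPM in KO and 6.82, 2.24, 2.52 and 4.32 CPM in KO + NM1, or 4.03 ± 0.38 (SE, edgeR adjusted p = 0.000613). Fen1, the flap nuclease, measured 12.1, 9.77 and 9.77 against 3.25, 0.732, 0.889 and 0.863 CPM, or 2.87 ± 0.57 (SE, edgeR adjusted p = 0.00603). The DNA ligase Lig1 lay between at 3.10 ± 0.32 (SE). The low level of Fen1 stands beside an overlap: 84.2% of its exon bases are shared with Tmem258 and Gm10143 on the opposite strand, and the part of that overlap was not tested.

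The single-strand binder RPA is a trimer, and all 3 of its genes were higher in KO. Its large subunit Rpa1 measured 316, 251 and 270 CPM in KO and 101, 52.8, 53.5 and 50.4 CPM in KO + NM1, or 2.11 ± 0.28 (SE, edgeR adjusted p = 0.00133). The small subunit Rpa3 measured 28.5, 29.5 and 27.7 against 19.6, 16.3, 17.7 and 14.6 CPM, or 0.74 ± 0.16 (SE, edgeR adjusted p = 0.00693). It was the smallest of the differences that were called, and it was no longer called without KO piece 02 (adjusted p = 0.0586). Rpa2 was higher by 1.52 ± 0.32 (SE).

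Of the genes that protect the fork and signal when it stalls, all 4 were higher in KO. Clspn, the gene of the checkpoint mediator claspin, measured 80.5, 61.2 and 63.7 CPM in KO and 2.44, 0.244, 0.692 and 0.452 CPM in KO + NM1. The lowest KO piece was 25.1 times as high as KO + NM1 piece 01, and the log2 fold change of 6.14 ± 0.68 (SE, edgeR adjusted p = 0.00114) was the highest of the 50. The lowest count behind it was 6 reads. Tipin measured 57.6, 55.3 and 49.2 against 17.8, 18.1, 13.7 and 15 CPM, or 1.74 ± 0.15 (SE, edgeR adjusted p = 0.000432). Timeless, the partner of Tipin at the fork, was higher by 2.76 ± 0.34, and Wdhd1, which links the helicase to polymerase alpha, by 3.29 ± 0.6.

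**Figure D3:**
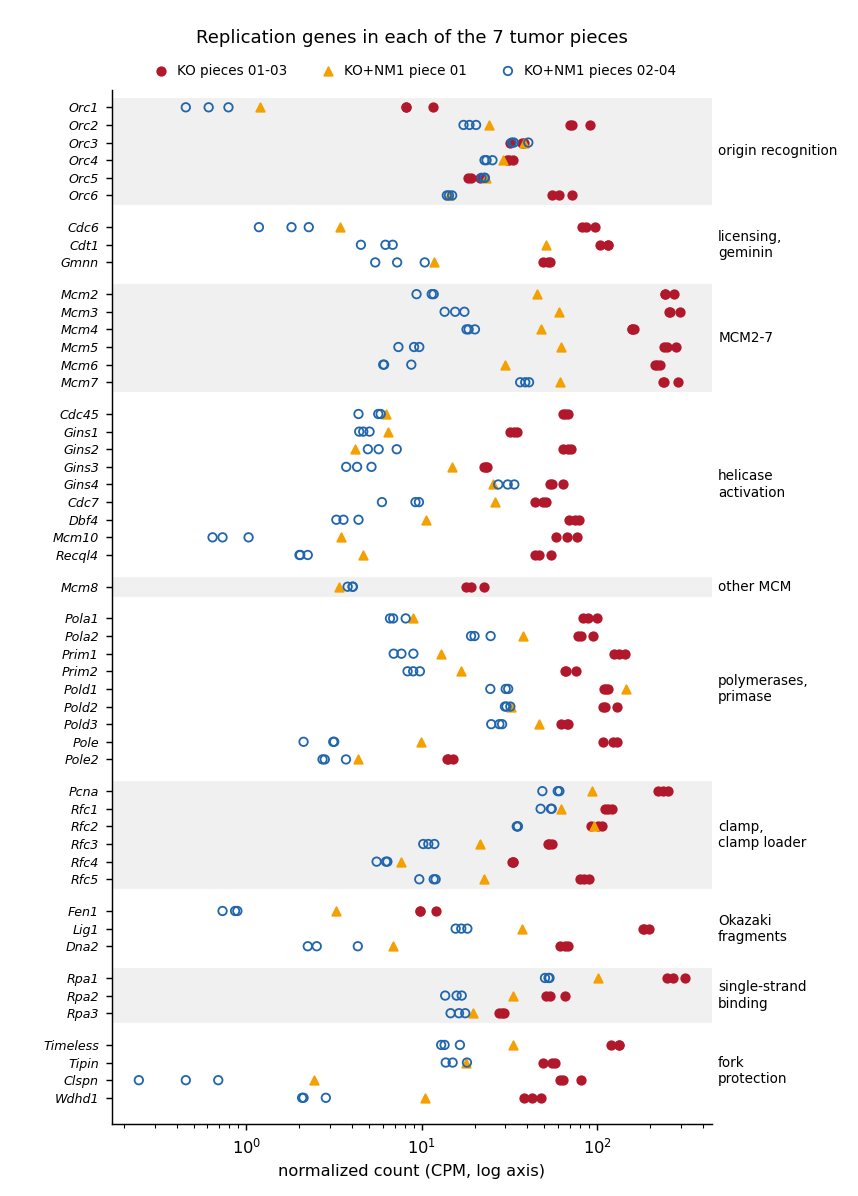
Normalized counts (CPM, log x axis) of the 50 replication genes (y axis, by role) in each of the 7 tumor pieces: KO pieces as filled circles, KO + NM1 piece 01 as triangles and KO + NM1 pieces 02 to 04 as open circles. In 46 genes all KO points lie to the right of all KO + NM1 points, and the triangle of Pold1, at 146 CPM, lies to the right of its KO points.

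Ratios between pairs of members within a piece do not depend on the scaling of libraries. They are made from the same counts as the fold changes above, so a pair whose fold changes differ also differs in its ratio. The tests below therefore describe these pairs and are not separate support for the fold changes. Of 6 pairs, 4 differed between the groups by the exact two-sided permutation test over pieces, whose smallest p at 3 against 4 pieces is 0.0286. Orc1 over Orc4, a called subunit against one that did not pass, had log2 count ratios of -1.51, -1.90 and -1.95 in KO. In KO + NM1 they were -4.58, -5.33, -4.81 and -5.63. The difference was 3.30 (exact p = 0.0286, or 0.0429 adjusted over the 6 pairs). Pole over Pold1, the catalytic subunits of epsilon and delta, went from a mean of -3.48 ± 0.29 in KO + NM1 (SD, n = 4) to 0.09 ± 0.1 in KO (SD, n = 3), a difference of 3.57. Dbf4 over Cdc7, the activator against its kinase, differed by 1.79, and Rfc4 over Rfc1, a small against the large loader subunit, by 1.28. These 3 pairs had the same p values as Orc1 over Orc4 (exact p = 0.0286, adjusted 0.0429). In each of the 4 pairs, KO + NM1 piece 01 lay with the other pieces of its group and not with KO.

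Mcm5 over Orc4 did not overlap between the groups either, but its difference of 3.84 had an exact p of 0.0571 (adjusted 0.0686), and piece 01 at 1.09 lay far from the -1.63 to -1.37 of pieces 02 to 04. Gmnn over Cdt1 overlapped. Its log2 ratio was -1.14, -0.96 and -1.23 in KO and -2.12, 0.08, 1.20 and -0.19 in KO + NM1, a difference of -0.85 (exact p = 0.371, adjusted 0.371). Piece 01 was below the KO pieces, while pieces 02 to 04 were above them. Without piece 01 the difference was -1.48 for Gmnn over Cdt1 and 4.48 for Mcm5 over Orc4.

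**Figure D4:**
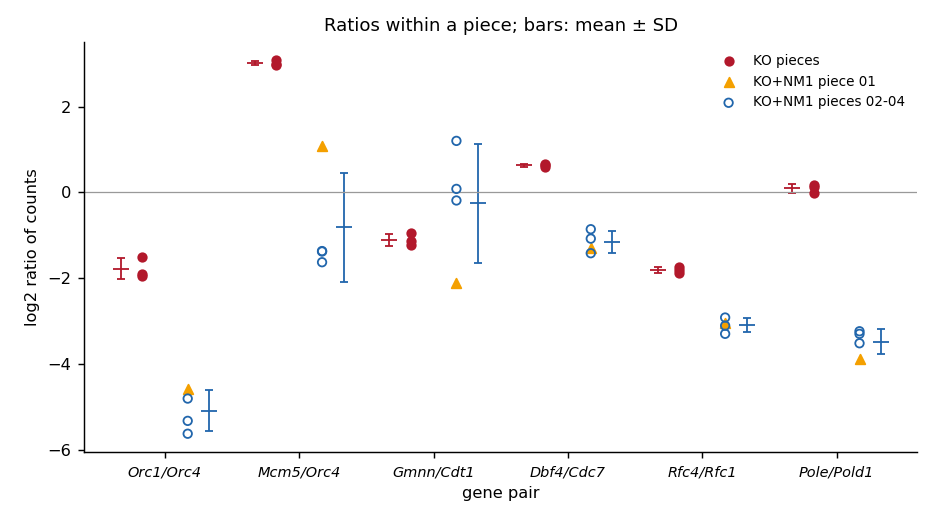
Log2 ratio of the counts of a gene pair within a piece (y axis) for 6 pairs (x axis), with KO pieces as filled circles, KO + NM1 piece 01 as triangles, KO + NM1 pieces 02 to 04 as open circles, and bars for the mean ± SD of each group. For Pole over Pold1 the KO pieces lie between -0.02 and 0.17 and the KO + NM1 pieces between -3.88 and -3.24, and for Gmnn over Cdt1 the groups overlap.

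KO + NM1 piece 01 stood apart for these genes. It was the highest of its 4 pieces for 44 of the 50 members, which is 88%, beside 43.2% of all genes tested. Against the median of pieces 02 to 04 the members were higher in piece 01 by a median of 0.93 on the log2 scale, while the median of all genes with a count in every KO + NM1 piece was -0.01. The excess was largest for Cdt1 at 8.26-fold, Mcm5 at 6.86-fold, Clspn at 5.4-fold and Wdhd1 at 4.95-fold. Among the role groups, MCM2-7 had a median excess of 1.98 (log2) and the origin recognition complex of 0.25. Not all members took part: Gins2, Gins4 and Mcm8 were lower in piece 01 than that median, and Orc6, Orc5 and Pold2 differed by 1.0-fold, 1.02-fold and 1.06-fold. Pieces 02 to 04 were close to each other, with a median coefficient of variation of 11.9% over the members, compared with 38.6% once piece 01 was included. The same values over all genes were not taken, so this rise is not shown to be particular to the members. Without piece 01, 48 members were called higher and 1, Orc5, lower, where 35.8% and 36% of all genes were called. The differences of 10 members moved by over 1.5 times without it, and the share over all genes was not taken. These members were Cdt1, Pold1 and 4 of the MCM2-7 genes, and Mcm10, Fen1, Clspn and Wdhd1, whose log2 fold changes were then 6.25, 3.54, 7.10 and 4.07.

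The pieces also differed in their other cells. The B and plasma cell markers, 7 genes, summed to 4270 CPM in KO + NM1 piece 01, to between 3.66 and 17.5 CPM in pieces 02 to 04 and to between 9.77 and 43.9 CPM in KO. Nude mice lack a thymus but have B cells. White adipocyte markers summed to 5400 CPM in piece 01 and to 29100 to 39600 CPM in pieces 02 to 04. Fibroblast markers summed to 4080 CPM in piece 01 and to 9200 to 15400 CPM in pieces 02 to 04. Macrophage markers summed to 2560 CPM there and to 683 to 933 CPM in the others, and endothelial markers to 1110 and to 1350 to 1580 CPM. Of the macrophage sum, Lyz2 alone gave 1900 CPM in piece 01 and 196 to 272 CPM in pieces 02 to 04. The median log2 of CPM plus 1 over the macrophage list was 6.2 in piece 01 and 5.92 to 6.27 in the others. The part of these lists in the values of piece 01 was not tested.

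Between the groups, all 10 white adipocyte markers were lower in KO (185 to 400 CPM in sum) and all 8 endothelial markers were lower (219 to 251 against 1110 to 1580 CPM). Of the 6 brown adipocyte markers 4 were lower in KO, with sums of 7.77 to 35.9 against 397 to 3490 CPM. All 10 skeletal muscle markers were higher in KO, at 2360 to 19300 against 7.81 to 25.9 CPM, and Pvalb was at 0 in KO + NM1 pieces 02 to 04. Of 10 macrophage markers 8 were higher in KO, with sums of 3740 to 4280 against 683 to 2560 CPM. The 2560 CPM, of KO + NM1 piece 01, was mostly Lyz2. No B and plasma cell marker passed the test, nor did 3 of the 4 keratinocyte markers tested, the other, Lor, being higher. Lor measured 1.53, 165 and 0.991 CPM in KO pieces 01 to 03 and 0.109 to 0.642 CPM in KO + NM1. Keratinocyte markers summed to 1210 CPM in KO piece 02, to 25.7 and 3.86 CPM in KO pieces 01 and 03 and to 56.1 to 420 CPM in KO + NM1. Of the 10 fibroblast markers 1 was higher and 4 were lower. Mitochondrial transcripts made up 1.81% to 2.14% of counts in KO and 5.11% to 18.5% in KO + NM1. The part of these differences in the levels of the replication genes was not tested. Within KO, piece 01 had the lowest muscle sum (2360 against 19300 and 15300 CPM) and was the highest of the 3 pieces for 45 members, or 90%, beside 42.4% of all genes.

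Another 37 genes of the replication pathway, among them initiation helpers, alternative clamp loaders, chromatin assembly factors and topoisomerases, were compared with the members. Of these 31 were higher in KO, 24 by at least 2-fold, where 25.7% and 17.1% of all genes tested were called. None was lower at an adjusted p under 0.05, against 24.5% of all genes. Their median log2 fold change was 1.60. Like the members, this list was chosen with earlier results of these data known. Topoisomerase II alpha, which untangles the copied strands, was the furthest apart: Top2a measured 970, 679 and 730 CPM in KO and 24.3, 3.46, 3.76 and 9.54 CPM in KO + NM1, or 6.27 ± 0.68 (SE, edgeR adjusted p = 0.00118). Ticrr, the treslin gene, which brings Cdc45 to origins, followed at 5.75 ± 0.64 (SE, edgeR adjusted p = 0.0011).

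The 6 that did not pass were Pold4, Pole3, Pole4, Chtf8, Top2b and Smarcal1. Pold4, the smallest subunit of polymerase delta, measured 20.7, 19.2 and 22.5 CPM in KO and 101, 37.5, 30.2 and 28.7 CPM in KO + NM1. The KO pieces were the lower ones without overlap, and the log2 difference of -1.25 ± 0.47 (SE) did not pass (edgeR adjusted p = 0.0657). Pole4, a histone-fold subunit of polymerase epsilon, measured 51.2 ± 2.91 (SD, n = 3) and 58.1 ± 8.67 CPM (SD, n = 4), a difference of -0.18 ± 0.15 (SE, edgeR adjusted p = 0.339). Of the polymerase delta genes, Pold2 and Pold3 were thus called higher in KO and Pold1 and Pold4 were not. Of the epsilon genes, Pole and Pole2 were called and Pole3 and Pole4 were not. Top2b, the isoform that non-dividing cells also make, differed by -0.14 ± 0.2 (SE, edgeR adjusted p = 0.589).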

How the data were processed

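RNA-seq of 3 KO and 4 KO + NM1 tumor pieces was analysed. The authors deposited raw read counts per Ensembl gene, made with Trimmomatic 0.36, HISAT2 2.0.4, SAMtools 0.1.19 and HTSeq-count on GRCm38. The annotation release and strand option are not given in the sources used here. GENCODE M21 gave symbols for 46005 genes, and exon lengths, taken as the union of all annotated exons of a gene. Counts were tested with edgeR 4.0.16 (filterByExpr with a minimum count of 10, TMM, quasi-likelihood test, Benjamini-Hochberg adjustment over 16887 genes) in R 4.3.3, using only these 7 libraries, after a test on simulated data. Two-sided exact permutation tests compared the gene pair ratios, with 0.5 counts added. The members and lists were chosen with earlier results of these data known. Per role group, the members with the largest and the smallest change are given in full, and every member that missed the threshold, and of the other pathway genes, the 2 largest rises and the 2 lowest values. Top2b, Pvalb, Lyz2, Lor, and the members with notable piece or subunit values were singled out after their values were seen. Alternatives were DESeq2 1.42.0, limma 3.58.1 voom, the edgeR test glmTreat, other scalings and filters, a replicate block and leaving out each piece. In a chi-square check of shared reads, divided by its degrees of freedom, library pairs gave 35.2 to 1050, and none was counted as a repeat. The floor of 3 counts covers counting error only, while SDs and SEs hold the spread between pieces.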

Additional observations from a re-analysis of the deposited data

Results flagged for a closer look

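In the 4 KO + NM1 pieces, Dixon's test at the 95% level was applied to 56 values, the 50 members and the 6 pair ratios, and chance alone flags about 1 in 20. It marked 19, and in all 19 the piece that stood apart was 01, above the others. That is 18 of the 50 members (36%), while over all 16887 genes tested 15.2% were marked with piece 01 highest and 19.4% in any piece. The gap to the nearest piece, as a share of the whole range, was 0.95 for Cdt1, 0.934 for Mcm2, 0.914 for Mcm3, 0.932 for Mcm4, 0.958 for Mcm5 and 0.888 for Mcm6. It was 0.868 for Gins3, 0.851 for Dbf4, 0.863 for Mcm10, 0.914 for Recql4, 0.946 for Pold1 and 0.866 for Pole. For Rfc2 it was 0.991, for Rfc3 0.858, for Fen1 0.938, for Lig1 0.88, for Rpa1 0.939, for Wdhd1 0.909 and for the ratio of Mcm5 to Orc4 0.905. The genes share 1 library and are not independent. The values of the marker genes in that piece stand with its description, and their part was not tested.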

How the results depend on the processing

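Over all settings tried, 42 to 48 members were higher in KO, 37 to 45 by at least 2-fold, with a median log2 fold change of 2.43 to 2.77, and 23 to 33 of the other replication genes were higher. Over the settings that test for any change, the share of all genes called higher ran from 12.8% to 41.7%. The first was with every gene of at least 1 count (45 members), the second with voom (48 members). The 37 members came from glmTreat, an edgeR test against a 2-fold change, which called 10.1% of all genes higher. Of 799 member values under the alternatives, 769 kept their direction and side of the threshold, 18 lost the call, 9 gained it and 3 changed sign, all 3 of Orc3. Its log2 difference was 0.16 with library size alone, 0.03 with voom, and -0.19 to 0.02 with a piece left out. Members lower in KO numbered 1 with the DESeq2 Wald test, 1 with voom and 0 to 1 with a piece left out, the 1 being Orc5 each time. The shares of all genes called lower were 30.7%, 35.2% and 18.7% to 36% in these settings. The replicate block gave 42 members higher in KO, without the calls of Cdt1, Gins3 and Rpa3; piece numbers did not pair the pieces, whose deviations correlated at 0.0728, 0.0978 and -0.0188. With a piece left out the pair differences were 3.12 to 3.47 for Orc1 over Orc4, 1.70 to 1.89 for Dbf4 over Cdc7, 1.22 to 1.34 for Rfc4 over Rfc1, 3.44 to 3.65 for Pole over Pold1, 3.58 to 4.48 for Mcm5 over Orc4 and -1.48 to -0.37 for Gmnn over Cdt1, with 4.48 and -1.48 both without KO + NM1 piece 01, in designs whose smallest exact p is 0.0667 or 0.1. Scaling moved the median of all genes by 0.17 (library size alone), -0.16 (upper quartile) or -0.10 (DESeq2 size factors). With at least 10 counts in every library Clspn was not tested.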
